A study of Mus musculus with 19 samples.

Results

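The Eph receptors described here were 10 of the 47069 genes in the deposited count tables, found by matching Ensembl gene identifiers to the symbols Epha3, Epha4, Epha5, Epha6, Epha7 and Epha8 of the EphA class and Ephb1, Ephb2, Ephb3 and Ephb4 of the EphB class. The list is one of gene names, with no threshold on a measured value. Their transcripts were measured by RNA-seq in Sun1-GFP-positive cells sorted from mouse retina at E16.5, in 3 libraries of ipsilaterally projecting retinal ganglion cells (iRGCs) and 3 of contralaterally projecting ones (cRGCs). The iRGC libraries came from whole retinas of mice with the Slc6a4-Cre driver, the ET33 Sert-Cre transgene, which follows the serotonin transporter gene. The cRGC libraries came from retinas of mice with the Pou4f2-Cre driver, a knock-in at the Brn3b locus, after the ventrotemporal (VT) region had been cut away. All mice carried the Cre-dependent Sun1-GFP cassette in the Rosa26 locus, were of the C57/DBA F1 strain with male and female embryos pooled, and are given as WT in genotype. A Cre driver also marks the descendants of any cell in which it was active. The projection of the cells, their position in the retina and the driver line cannot be told apart in this design.

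Eph receptors are receptor tyrosine kinases on the cell surface, and their ligands, the ephrins, are held on the surface of neighbouring cells. EphA receptors mostly bind the ephrin-As, which are anchored in the membrane by a lipid, and EphB receptors mostly bind the ephrin-Bs, which span it. Contact signals into the receptor-bearing cell (forward signalling) and, for the ephrins, back into the ligand-bearing cell (reverse signalling). In the visual system EphA receptors are known for graded levels along the nasotemporal axis of the retina, EphB receptors for higher levels in ventral retina, and Ephb1 for its part in turning ipsilateral axons away from ephrin-B2 at the optic chiasm midline.

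The sequence just upstream of the start of each receptor gene was read from RefSeq promoter windows of GRCm38.p6, and all 10 receptors matched. The windows of the 4 receptors with the largest differences between populations (Epha3, Epha8, Ephb4 and Epha6) and of Ephb1 are shown, since these are the genes on which the comparison turned. Each holds the 250 bases before the gene's annotated start, 5′ to 3′ on the gene's strand, in lower case. Capitals mark the letters CCAAT on either strand, the core of the CCAAT box, which were chosen for display after the sequences had been seen. The windows lie at chr16:63864176-63864425 on the minus strand (Epha3), chr4:136956817-136957066 on the minus strand (Epha8), chr5:137349859-137350108 on the plus strand (Ephb4), chr16:60605532-60605781 on the minus strand (Epha6) and chr9:102354694-102354943 on the minus strand (Ephb1).
Epha3: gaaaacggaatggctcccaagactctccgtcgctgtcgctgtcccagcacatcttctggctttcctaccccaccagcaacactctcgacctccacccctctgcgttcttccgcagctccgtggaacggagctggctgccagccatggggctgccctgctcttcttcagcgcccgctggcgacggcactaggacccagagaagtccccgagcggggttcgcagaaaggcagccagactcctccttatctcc
Epha8: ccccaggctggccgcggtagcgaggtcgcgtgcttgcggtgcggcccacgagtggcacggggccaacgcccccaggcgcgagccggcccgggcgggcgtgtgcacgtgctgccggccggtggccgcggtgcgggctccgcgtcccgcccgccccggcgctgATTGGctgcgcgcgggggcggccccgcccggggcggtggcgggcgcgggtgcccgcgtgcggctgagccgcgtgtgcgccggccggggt
Ephb4: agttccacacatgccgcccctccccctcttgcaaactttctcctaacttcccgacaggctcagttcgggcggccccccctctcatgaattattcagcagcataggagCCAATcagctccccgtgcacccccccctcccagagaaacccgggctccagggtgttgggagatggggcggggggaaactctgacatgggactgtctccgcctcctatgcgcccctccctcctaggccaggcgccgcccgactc
Epha6: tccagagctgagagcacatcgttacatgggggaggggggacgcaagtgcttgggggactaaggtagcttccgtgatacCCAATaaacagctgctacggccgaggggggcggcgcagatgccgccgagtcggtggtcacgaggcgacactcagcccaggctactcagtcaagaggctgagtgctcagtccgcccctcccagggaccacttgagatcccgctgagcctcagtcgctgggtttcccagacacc
Ephb1: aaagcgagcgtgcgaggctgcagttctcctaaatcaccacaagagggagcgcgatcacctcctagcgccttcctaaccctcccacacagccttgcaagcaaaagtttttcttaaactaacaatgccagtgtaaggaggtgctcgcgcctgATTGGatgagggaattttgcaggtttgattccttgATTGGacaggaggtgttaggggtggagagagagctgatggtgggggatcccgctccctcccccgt

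CCAAT was present in 33.9% of 32851 mouse windows of this length, in the windows of Epha8, Ephb4 and Epha6 in 1 copy each and in that of Ephb1 in 2 copies. The Epha3 window held none. Among the windows not shown, those of Epha4, Epha7 and Ephb2 held it and those of Epha5 and Ephb3 did not. GC content ran from 54.0% in Ephb1 to 84.0% in Epha8, all above the median of 52.4% over the windows. The same windows were searched on both strands for CAGCAGG, a word bound by Zic factors such as Zic2, for TAATTA, a word bound by LIM homeodomain factors, and for the longer TAATTAAT, which contains TAATTA and is bound by Pou4f factors. These were present in 8.44%, 4.84% and 0.788% of the 32851 windows. Among the receptors CAGCAGG was found upstream of Ephb3 only, and TAATTA upstream of Epha5 only, each 1 time. TAATTAAT was found in none. The stretches around these matches, with the match in capitals, are at chr16:21204553-21204599 on the plus strand for Ephb3, where the word lies on the opposite strand and starts 222 bases upstream, and at chr5:84417587-84417632 on the minus strand for Epha5, starting 230 bases upstream. Such matches describe the letters and not binding.
Ephb3: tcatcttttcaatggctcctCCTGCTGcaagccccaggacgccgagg
Epha5: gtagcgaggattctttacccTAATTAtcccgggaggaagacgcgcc

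The libraries held 28193178 to 33638083 reads assigned to genes. Levels are in CPM, the reads of a gene relative to the library's size after TMM scaling in edgeR, and averages are means ± SD of the libraries. Log2 fold changes compare iRGCs with cRGCs, so that a positive value is a higher level in iRGCs, and each has a standard error (SE). The quasi-likelihood test of edgeR was used two-sided. Genes whose p-value was under 0.1 after Benjamini-Hochberg adjustment across all tested genes were called, and called genes with an absolute log2 fold change above 1 are DEGs. The labels number the libraries as replicates and do not say how many embryos or litters each came from, so p-values measure the spread between these libraries. In bulk RNA, fewer cells that make a transcript and less transcript per cell cannot be told apart.

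Before the receptors, the libraries were compared with their labels. Zic2, the transcription factor that sets the ipsilateral program, was at 133, 173 and 157 CPM in iRGC replicates 1, 2 and 3 and at 57.0, 60.2 and 65.7 CPM in the cRGC replicates. Pou4f1, a factor of contralaterally projecting RGCs, was at 107, 116 and 182 CPM in iRGCs and 861, 672 and 431 CPM in cRGCs. Both genes separated the populations without overlap. Slc6a4, the gene whose regulatory region drives Cre in the iRGC line, was at 2.06, 33.4 and 116 CPM in iRGC replicates 1, 2 and 3 and at 48.1, 35.4 and 30.5 CPM in the cRGC replicates. The library labelled iRGC replicate 1 thus lay below every cRGC library for the driver gene, against its label. The log2 fold changes of the called receptors are therefore also given without it. Those of the receptors that were not called were then 0.15 for Epha4, -0.19 for Epha5, -0.23 for Epha7 and -0.10 for Ephb1, and none was called. Foxd1, a factor of temporal retina, was higher in iRGCs (log2 fold change 1.84, adjusted p = 0.00177), while Vax2, a factor of ventral retina, was lower in iRGCs (-1.07, adjusted p = 0.00303).

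Of the 10 Eph receptors, 3 were higher in iRGCs (Epha3, Epha8 and Ephb4), 3 were lower (Epha6, Ephb3 and Ephb2), and 4 were not called (Epha4, Epha5, Epha7 and Ephb1). Epha3, Epha8, Ephb4 and Epha6 were DEGs. All 10 had passed the filter on low counts. Over the 15941 genes tested, 46.4% were called, 23.3% as higher and 23.1% as lower in iRGCs, and 23.1% were DEGs. With 10 members, 6 called lies near this background, and the 4 DEGs are too few to be read apart from it. The median log2 fold change of the receptors was -0.16, against -0.0031 for all tested genes, and their median absolute log2 fold change was 0.49, against 0.60. The iRGC and cRGC libraries of 6 receptors did not overlap in CPM, as was so for 55.3% of the tested genes. The calls differed from gene to gene within both classes, with 3 of 6 EphA and 3 of 4 EphB receptors called.

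**Figure D1:**
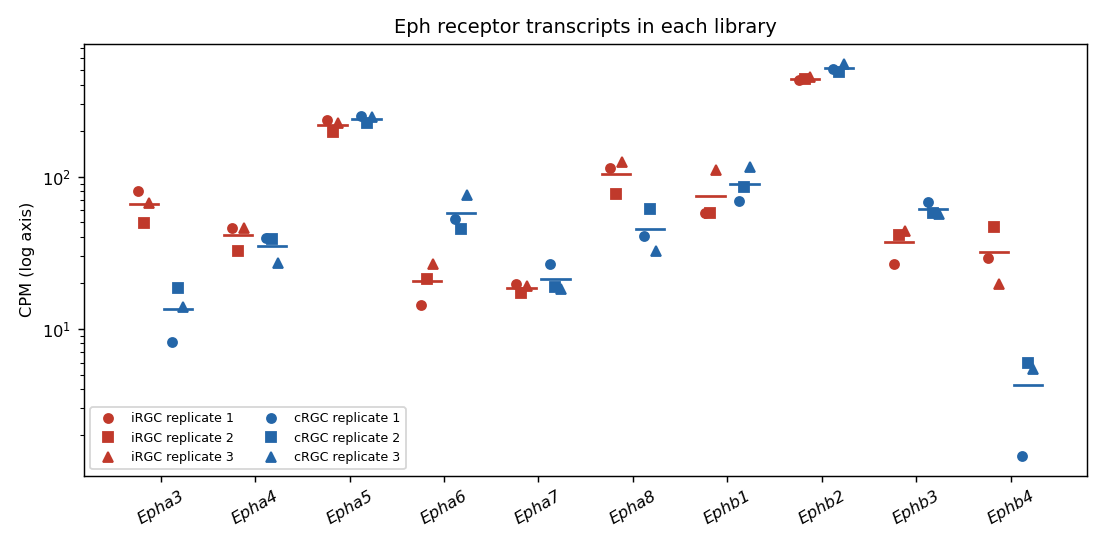
CPM (log axis) of the 10 Eph receptors in each of the 3 iRGC (red) and 3 cRGC (blue) libraries, with a horizontal line at the mean of each population and the marker shape giving the replicate. The Epha3, Epha8 and Ephb4 points of iRGCs lie above all those of cRGCs, the Epha6, Ephb3 and Ephb2 points lie below, and the other 4 receptors overlap.

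Epha3, an EphA receptor known from the temporal retina of the chick, was at 80.6, 49.4 and 66.8 CPM in iRGC replicates 1, 2 and 3 and at 8.15, 18.5 and 14.0 CPM in the cRGC replicates. The lowest iRGC library was above the highest cRGC library, and the spread within cRGCs was wide for the level. iRGCs averaged 65.6 ± 15.6 CPM and cRGCs 13.5 ± 5.19 CPM (SD, n = 3 each). This was a log2 fold change of 2.27 with an SE of 0.300 (adjusted p = 5.28e-04), and of 2.10 without iRGC replicate 1 (adjusted p = 0.00208). The gene lies on chromosome 16 (GRCm38, 63543534 to 63864175, minus strand), and none of its exonic bases are shared with another gene.

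Epha8, an EphA receptor best known from the developing midbrain, was at 113, 76.5 and 124 CPM in the iRGC replicates and 40.7, 61.3 and 32.6 CPM in the cRGC replicates. The gap was narrow, between iRGC replicate 2 and cRGC replicate 2. Epha8 had a log2 fold change of 1.22 with an SE of 0.254 (adjusted p = 0.00480), and of 1.16 without iRGC replicate 1 (adjusted p = 0.0167). Epha8 (chromosome 4, 136929419 to 136956816, minus strand) and Ephb2 lie in the same part of that chromosome, and their differences had opposite signs.

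Epha6, which with Epha5 is known for a nasotemporal gradient in mouse RGCs, was at 14.3, 21.2 and 26.5 CPM in the iRGC replicates and 52.8, 45.1 and 75.2 CPM in the cRGC replicates. It was the receptor with the largest decrease in iRGCs, and the highest iRGC library was below the lowest cRGC library. On the log2 scale the fold change was -1.48 with an SE of 0.261 (adjusted p = 0.00209), and -1.27 without iRGC replicate 1 (adjusted p = 0.00514). Its gene spans 59653483 to 60605531 on the minus strand of chromosome 16 and shares 2.02% of its exonic bases with the antisense gene Gm9017. Whether the authors' counting used the strand of the reads is not given in the sources used here, so these bases are uncertain.

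The remaining EphA receptors were not called. Epha5, the other receptor of that gradient, was at 235, 197 and 225 CPM in iRGCs and 249, 226 and 247 CPM in cRGCs, and the populations overlapped. Its log2 fold change was -0.13, with a 95% confidence interval from -0.38 to 0.11 (adjusted p = 0.362). The interval thus allows only small differences for this gene. Epha4, which can bind ephrins of both classes, was at 45.6, 32.2 and 45.8 CPM in iRGCs and 39.4, 38.9 and 27.1 CPM in cRGCs (log2 fold change 0.23, interval -0.22 to 0.68, adjusted p = 0.408). Epha7, known also for splice forms that lack the kinase, was at 19.6, 17.1 and 19.2 CPM in iRGCs and 26.6, 18.9 and 18.3 CPM in cRGCs (-0.19, interval -0.64 to 0.26, adjusted p = 0.497). Libraries of the populations were interleaved for both genes.

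Among the EphB receptors, Ephb1 was at 57.3, 57.6 and 110 CPM in iRGC replicates 1, 2 and 3 and at 69.3, 85.2 and 115 CPM in the cRGC replicates. In iRGCs replicate 3 stood apart from both others, and it lay among the cRGC libraries. The same library had the highest Slc6a4 level of all, and the part of this in the Ephb1 value was not tested. Averages were 74.9 ± 30.2 CPM and 89.9 ± 23.4 CPM (SD, n = 3 each). Its log2 fold change was -0.26 with an SE of 0.278 (interval -0.89 to 0.37, adjusted p = 0.499), and the interval did not reach a difference of 1 in either direction. Without iRGC replicate 3 the log2 fold change was -0.66 and Ephb1 was called as lower in iRGCs (adjusted p = 0.0350). Ephb1 (chromosome 9, 101922128 to 102354693, minus strand) shares 2.17% of its exonic bases with Gm26846, and 1.55% of its 50-base words occur in other genes, the highest share among the receptors.

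Ephb2, an EphB receptor of the ventral retina, was the most abundant of the 10 in CPM, with 430, 434 and 451 CPM in iRGCs and 513, 484 and 552 CPM in cRGCs. All iRGC libraries lay below all cRGC libraries by a small margin. The fit gave a log2 fold change of -0.24 with an SE of 0.0970 (interval -0.46 to -0.02, adjusted p = 0.0865), and the call was lost without iRGC replicate 1 (-0.22, adjusted p = 0.159), without iRGC replicate 2 (-0.23, adjusted p = 0.201) and when any cRGC library was left out. Ephb3, which acts with Ephb2 in retinal axons on their way to the optic disc, was at 26.7, 41.4 and 43.7 CPM in iRGCs and 68.5, 57.6 and 57.0 CPM in cRGCs. The populations did not overlap, and iRGC replicate 1 was the lowest library, apart from the other iRGC libraries. For Ephb3 the log2 fold change was -0.71 with an SE of 0.193 (adjusted p = 0.0173), and -0.52 without iRGC replicate 1 (adjusted p = 0.0208).

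Ephb4, the EphB receptor known from veins, where it pairs with ephrin-B2 of arteries, was at 29.0, 46.5 and 19.6 CPM in iRGC replicates 1, 2 and 3 and at 1.46, 5.97 and 5.42 CPM in the cRGC replicates. The counts behind these levels were 903, 1506 and 620 in iRGCs and 38, 173 and 168 in cRGCs. It was the receptor with the largest difference, and the iRGC libraries lay above all cRGC libraries, with replicate 2 the highest. Ephb4 had a log2 fold change of 2.88 with an SE of 0.512 (adjusted p = 0.00216), and of 2.94 without iRGC replicate 1 (adjusted p = 0.00598). The gene lies on chromosome 5 (137350109 to 137378669, plus strand) and shares 0.711% of its exonic bases with Zan.

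**Figure D2:**
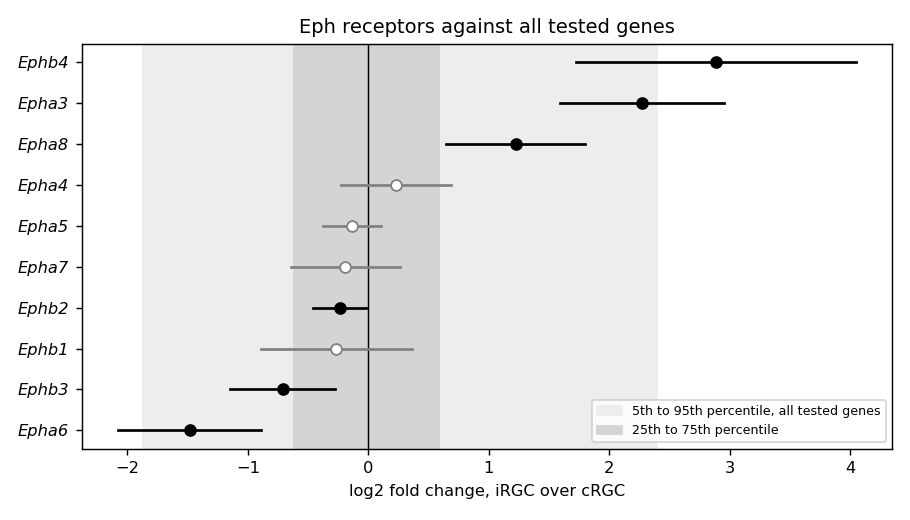
The log2 fold change of iRGCs over cRGCs (points) with its 95% confidence interval (bars) for the 10 Eph receptors, filled where called and open where not, over grey bands for the percentiles of all 15941 tested genes. Ephb4 at 2.88 lies above the 95th percentile of 2.39 and Epha3 at 2.27 just below it, while Epha4, Epha5, Epha7, Ephb1 and Ephb2 lie within the 25th to 75th percentiles, which run from -0.62 to 0.59.

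Levels of different receptors were compared per kilobase of exon. In these units Ephb2 led in both populations, with 34.8 ± 0.882 CPM per kilobase in iRGCs and 40.9 ± 2.73 in cRGCs (SD, n = 3). In iRGCs Epha8 came next at 22.2 ± 5.33, apart from Ephb2 above and Epha5 below. Epha5 (13.1 ± 1.20), Ephb1 (10.7 ± 4.31), Epha3 (7.54 ± 1.80), Ephb4 (6.83 ± 2.95), Ephb3 (5.61 ± 1.39), Epha4 (5.11 ± 0.966) and Epha6 (3.91 ± 1.16) followed in CPM per kilobase, each overlapping the next in range. Epha7 was last at 1.88 ± 0.136, apart from Epha6.

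The order in cRGCs was different below Ephb2. Epha5 (14.4 ± 0.751 CPM per kilobase), Ephb1 (12.8 ± 3.34), Epha6 (10.9 ± 2.96), Epha8 (9.52 ± 3.14) and Ephb3 (9.19 ± 0.972) followed, each overlapping the next in range. Epha4 (4.36 ± 0.860) stood apart from Ephb3 above it and from Epha7 (2.15 ± 0.468) below it. Epha3 (1.56 ± 0.597) and Ephb4 (0.923 ± 0.530) were at the bottom, overlapping their neighbours. Epha3 was thus at rank 5 in iRGCs and rank 9 in cRGCs, and Epha6 at rank 9 in iRGCs and rank 4 in cRGCs. These levels depend on the length used. Per kilobase of the longest transcript, the mean of Epha5 over the 6 libraries was 31.4 in place of 13.7 CPM per kilobase. In iRGCs Epha5 was then above Epha8 in every library, at 32.1, 26.8 and 30.8 against 24.0, 16.2 and 26.4 CPM per kilobase, so that the order of these receptors turned.

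The summed level of the 10 receptors was similar in the populations, at 110, 102 and 122 CPM per kilobase in iRGCs and 103, 104 and 113 in cRGCs, with overlap. EphB receptors made up 47.7%, 57.6% and 50.8% of this sum in the iRGC replicates and 59.3%, 57.9% and 62.1% in the cRGC replicates. The highest iRGC share lay just below the lowest cRGC share. Ephb2 alone accounted for a mean of 31.3% of the sum in iRGCs and 38.3% in cRGCs, and Epha8 for 19.7% and 8.99%.

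**Figure D3:**
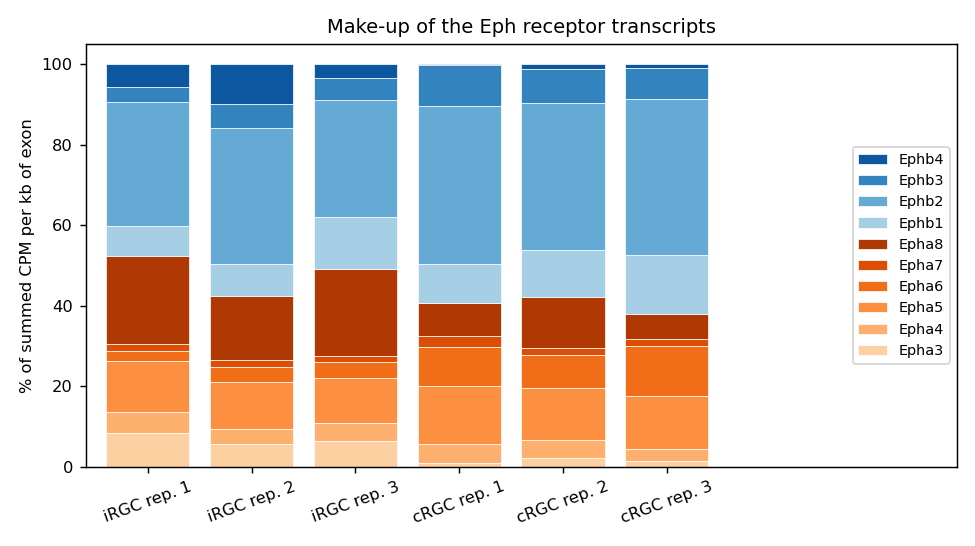
Share of each Eph receptor in the summed CPM per kilobase of exon, with a stacked bar per library, with EphA receptors in orange and EphB receptors in blue. Ephb2 is the largest block in all 6 libraries, Epha8 and Epha3 take larger shares in the iRGC bars, and Epha6 and Ephb3 take larger shares in the cRGC bars.

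Ratios of receptors within a library do not depend on library size. The ratio of Ephb1 to Ephb2 CPM was 0.133, 0.133 and 0.243 in the iRGC replicates and 0.135, 0.176 and 0.209 in the cRGC replicates. It did not separate the populations (difference of -0.07 on the log2 scale, exact permutation test, two-sided, p = 0.8). Its sign turned to 0.07, 0.08 and 0.08 when iRGC replicate 1, iRGC replicate 2 or cRGC replicate 3 was left out. The ratio of Epha5 to Epha6 CPM was 16.49, 9.26 and 8.51 in iRGCs and 4.72, 5.02 and 3.28 in cRGCs. This ratio was higher in every iRGC library, by 1.36 on the log2 scale (exact permutation test, two-sided, p = 0.1, the smallest that 3 libraries against 3 allow). Without iRGC replicate 1, the library with the highest ratio, the difference was 1.06.

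Markers of other cells moved with the populations, and their levels are given beside the receptors. All 12 progenitor markers were higher in iRGCs, with summed levels of 9062, 7907 and 6778 CPM in iRGC replicates 1, 2 and 3 and 752, 2040 and 1266 CPM in the cRGC replicates. The most abundant was Ccnd1, a cyclin, and none was at 0. Of the 12 RGC markers 10 were lower in iRGCs, Atoh7, the factor that starts RGC formation, was higher, and 1 was not called. Their sums were 2410, 3401 and 4995 CPM in iRGCs and 12691, 11563 and 14111 CPM in cRGCs, with Nefm, a neurofilament, the most abundant. The RGC list includes Pou4f1 and Sncg, which the paper describes as genes of cRGCs. The progenitor list includes Lhx2, which the paper describes as highly expressed in iRGCs. The tallies and sums are thus not measures of RGC or progenitor content alone. The cRGC replicates had the same order from low to high, 1, 3 and 2, in progenitor markers, Epha3 and Ephb4. Epha8 had the order 3, 1 and 2. Orders of only 3 libraries can match by accident. The iRGC libraries had another order for progenitor markers than for any of these 3 receptors. The part of progenitor RNA in the differences of these receptors was not tested.

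The receptors were also set against these sums, which was done after the values had been seen and carries no test. The progenitor sum was itself higher, and the RGC sum lower, in every iRGC library than in any cRGC library. A gene that differed less than the sum, or not at all, could therefore separate on these scales. The share of all tested genes that did so was not computed. Epha3 amounted to 0.889%, 0.625% and 0.985% of the progenitor sum in iRGCs and 1.08%, 0.907% and 1.10% in cRGCs, so that the populations overlapped on this scale. Ephb4 likewise overlapped, at 0.320%, 0.589% and 0.288% in iRGCs and 0.194%, 0.293% and 0.428% in cRGCs. The other 8 receptors were lower against the progenitor sum in every iRGC library than in any cRGC library. Epha6 amounted to 0.593%, 0.624% and 0.530% of the RGC sum in iRGCs and 0.416%, 0.390% and 0.533% in cRGCs, also with overlap. The other 9 receptors were higher against the RGC sum in every iRGC library. Ephb1, for example, amounted to 2.38%, 1.69% and 2.20% of the RGC sum in iRGCs and 0.546%, 0.737% and 0.818% in cRGCs.

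Of the 12 endothelial markers 7 could be tested and all 7 were higher in iRGCs. Some could pass the filter on low counts only with the iRGC libraries, so this tally was partly set by the filter. Cd34, for example, had 685, 2431 and 16 counts in iRGCs and 12, 4 and 6 in cRGCs. The 12 markers summed to 471, 731 and 437 CPM in iRGCs and 89.2, 109 and 72.0 CPM in cRGCs. The most abundant endothelial marker was Kdr, a VEGF receptor that retinal progenitors also make. Kdr was at 366, 320 and 418 CPM in iRGCs and 83.7, 103 and 67.6 CPM in cRGCs. Cdh5, the cadherin of endothelial junctions, was at 15.2, 81.3 and 0.158 CPM in the iRGC replicates and had 0 counts in every cRGC library. Tie1 was at 2.70, 44.1 and 0.0631 CPM in iRGCs and also had 0 counts in every cRGC library. In iRGC replicate 3 Cdh5, Tie1, Pecam1, Erg, Emcn, Esam and Tek were below 0.3 CPM, while Cldn5, a junction protein, was at 11.8 CPM there, against at most 2.93 CPM in cRGCs, and Flt1, another VEGF receptor, at 2.59 CPM, against at most 1.15 CPM. Ephb4 was at 19.6 CPM in that library, and the highest cRGC library was at 5.97 CPM. The part of endothelial RNA in the Ephb4 difference was not tested. Without iRGC replicate 2, the library highest in Cdh5 and Tie1, the log2 fold change of Ephb4 was 2.50 (adjusted p = 0.00995).

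**Figure D4:**
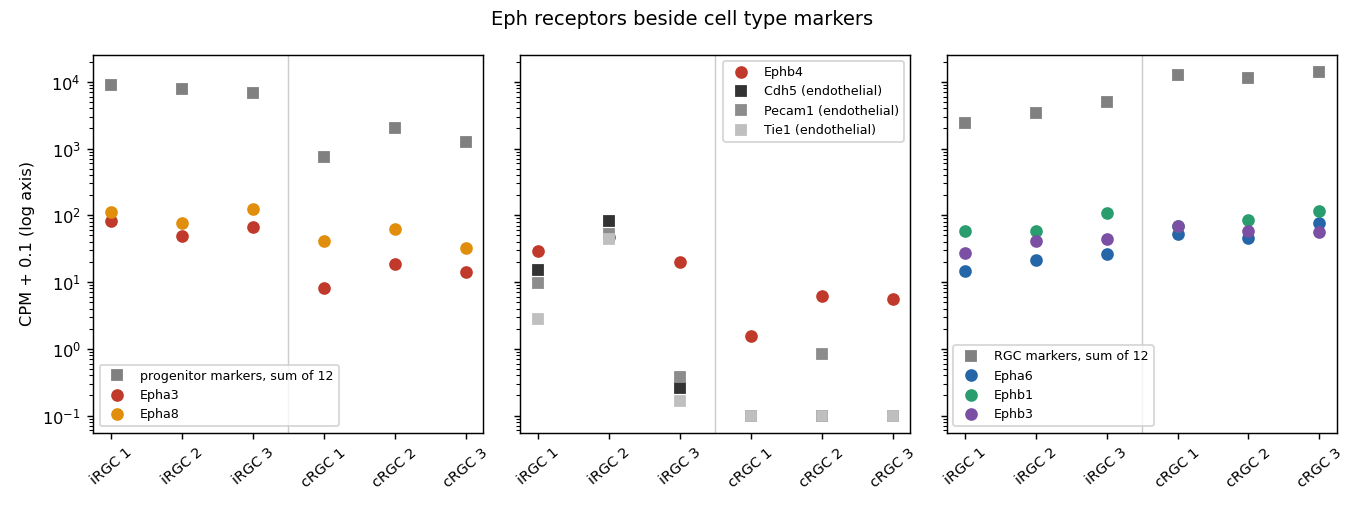
CPM with 0.1 added (log axis) in each library for Epha3 and Epha8 with the summed 12 progenitor markers (left), Ephb4 with 3 endothelial markers (middle) and Epha6, Ephb1 and Ephb3 with the summed 12 RGC markers (right). Squares are markers and circles receptors. The progenitor sum is at least 6778 CPM in iRGCs and at most 2040 CPM in cRGCs. In iRGC replicate 3 Cdh5, Pecam1 and Tie1 are below 1 CPM and Ephb4 is at 19.6 CPM. Other endothelial markers, Kdr, Cldn5, Flt1 and Egfl7, are not drawn and were higher in that library than in any cRGC library.

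The other genes of the pathway were described from lists of 56 genes, of which 55 were tested. Of these, 14 were higher in iRGCs, 27 were lower and 14 were not called, beside 23.3% and 23.1% of all tested genes called in these directions. Without iRGC replicate 1, 13 were higher and 25 lower. The median log2 fold change with all libraries was -0.25, against -0.0031 for all tested genes. Among the 4 Eph receptors outside the set of 10, Epha2, an EphA receptor of epithelia and progenitors, was at 64.3, 42.4 and 63.2 CPM in iRGCs and 5.73, 8.04 and 6.74 CPM in cRGCs. The populations did not overlap for Epha2, and its log2 difference of 3.05 with an SE of 0.222 (adjusted p = 2.01e-04) exceeded that of any of the 10. Without iRGC replicate 1 it was 2.95. Ephb6, which lacks kinase activity, was lower (-0.50, adjusted p = 0.0645), Epha10 was not called, and Epha1 did not pass the filter on low counts.

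Of the 8 ephrins 3 were higher in iRGCs, 3 were lower and 2 were not called, counts too small to be read apart from the 23.3% and 23.1% over all tested genes. Efnb2, the gene of ephrin-B2, was at 233, 287 and 217 CPM in iRGCs and 91.0, 105 and 124 CPM in cRGCs, without overlap (log2 fold change 1.20, SE 0.152, adjusted p = 4.41e-04, and 1.24 without iRGC replicate 1). It was the most abundant ephrin in CPM. Efna1 was at 2.19, 10.2 and 1.61 CPM in iRGCs and 0.0384, 0.414 and 0.645 CPM in cRGCs, with its highest level in iRGC replicate 2, the library highest in Cdh5 (3.65, SE 1.06, adjusted p = 0.0238). Efnb1 was also higher (0.62, adjusted p = 0.00736). Efna3 was the ephrin that was lowest in iRGCs relative to cRGCs, at 4.31, 5.01 and 10.8 CPM against 34.0, 32.2 and 21.7 CPM (-2.12, SE 0.366, adjusted p = 0.00184), with 14.1% of its exonic bases shared with Gm15998. Efnb3 (-0.49, adjusted p = 0.0131) and Efna2 (-0.37, adjusted p = 0.0926) were lower, and Efna4 and Efna5 were not called. Efna2 lost its call without iRGC replicate 1 (adjusted p = 0.125).

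Forward signalling genes, which carry the signal of the receptor into the cell, were higher in iRGCs for 8, lower for 16 and not called for 8 of 32, beside 23.3% higher and 23.1% lower over all tested genes. Those with the largest increases were Inppl1, a lipid phosphatase (2.14, adjusted p = 2.05e-04, 20.3% of exonic bases shared with other genes), Grb10, an adaptor (1.85, adjusted p = 5.14e-04), and Sipa1l1, a regulator of Rap (1.18, adjusted p = 7.43e-04). Pak1, a kinase of the actin cytoskeleton (-1.42, adjusted p = 2.58e-04), and the exchange factors Vav3 (-1.38, adjusted p = 2.35e-04) and Arhgef15 (-1.25, adjusted p = 0.00130) were lowest in iRGCs relative to cRGCs. The next lists, of 5 and 7 genes, are too short for their counts to be read apart from these shares. Of the 5 genes of ephrin-B reverse signalling, Rgs3, which restrains G protein signals (1.08, adjusted p = 0.00632), was higher, 3 were lower, led by the scaffold Grip1 (-1.19, adjusted p = 6.12e-04), and 1 was not called. Of the 7 genes of shedding and turnover, Acp1, a phosphatase (0.63, adjusted p = 0.0532), was higher, 4 were lower, led by the phosphatase Ptpro (-1.31, adjusted p = 0.00204) and Adam10, the protease that cuts ephrins (-1.08, adjusted p = 0.00287), and 2 were not called. Without iRGC replicate 1 Acp1 was no longer called (adjusted p = 0.130).

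**Figure D5:**
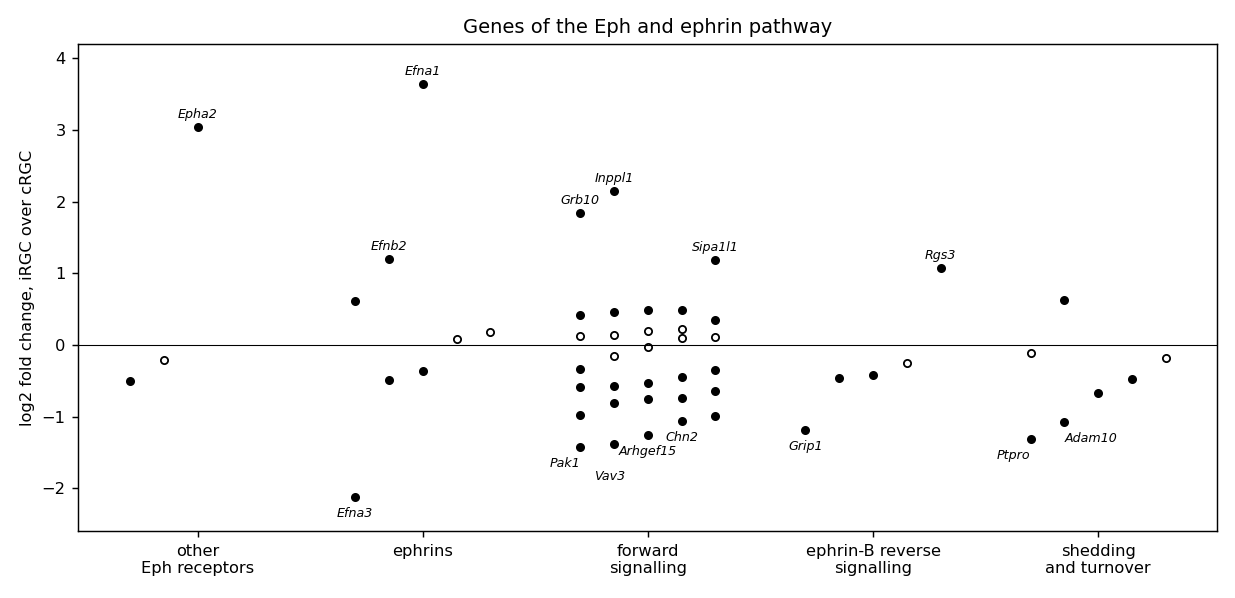
The log2 fold change of iRGCs over cRGCs for the 55 tested genes of 5 lists of the Eph and ephrin pathway, filled where called and open where not, with names where the absolute value is above 1. Points of 1 list are spread sideways for visibility only, with Efna1 at 3.65 the highest point and Efna3 at -2.12 the lowest.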

How the data were processed

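RNA was sequenced from 3 iRGC and 3 cRGC libraries. Per the methods, the authors aligned the reads with HISAT2 2.1.0 to mm10 and counted them with HTSeq 0.11.1 on Ensembl genes, and they deposited the whole-number counts per gene, without normalization. The 13 ATAC-seq samples were not analysed here. Gene symbols, positions and exon lengths came from GENCODE M21 of GRCm38, which matched 46574 of 47069 genes. HTSeq's tallies without a gene were set aside. Among reads aligned to 1 place, 12.3% (iRGC replicate 3) to 23.2% (cRGC replicate 1) overlapped no gene. Genes were tested with edgeR 4.0.16 in R 4.3.3 (filterByExpr, TMM, quasi-likelihood test, Benjamini-Hochberg adjustment over 15941 genes), with TMM factors of 1.03 to 1.10 in iRGCs and 0.921 to 0.952 in cRGCs and a biological coefficient of variation of 36.3%. Each SE was derived from the log2 fold change and its F statistic. The script was tested on simulated data. Alternatives were DESeq2 1.42.0 and its size factors, upper quartile factors, limma 3.58.1 (voom), other filters and thresholds, a replicate block, other gene lengths and each library left out in turn. The authors used DESeq2 1.26.0.

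The receptors and all lists (12 markers each of RGCs, progenitors and endothelial cells, other cell types, positions in the retina and the pathway) were chosen with earlier results of these data known. The result of 1 gene of the position lists is not reported here. Named pathway genes were those called with the largest absolute log2 fold change in each list, up to 3 per direction. Genes of similar pattern had the smallest root mean square difference of centred log2(CPM + 0.5) over the 6 libraries. Shares of the RGC and progenitor sums and the CCAAT search were added after the values had been seen. Figures were drawn with matplotlib 3.10.9.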

Additional observations from a re-analysis of the deposited data

How the results depend on the processing

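The direction of all 10 receptors in the test held under every alternative run. The calls of Epha3, Epha6, Epha8, Ephb3 and Ephb4 held under DESeq2 and its size factors, upper quartile factors, limma voom, both other filters, the replicate block and each library left out. With a threshold of 1 on the absolute log2 fold change, 1 receptor was called lower in place of 3. Without that threshold, 3707 genes were higher and 3688 lower in place of 1930 and 1758 DEGs. Ephb2 lost its call without the filter on low counts (-0.24, adjusted p = 0.215) and with the replicate block (-0.23, adjusted p = 0.107), and the cause was not tested. With a library left out, its log2 fold change ran from -0.27 to -0.18, that of Ephb1 from -0.656 to -0.0476, the difference in the Ephb1 to Ephb2 ratio from -0.360 to 0.0778, with reversals to 0.0737, 0.0762 and 0.0778, and the receptors called lower from 2 to 4. Deviations of same-numbered libraries from their group means had correlations of r = -0.0121, -0.0237 and -0.0550. Such values cannot show whether the numbers pair samples, and the labels do not say. Per kilobase of the longest transcript, mean levels in CPM per kilobase were 6.99 for Epha3 (4.55 per kilobase of exon), 6.03 for Epha4 (4.74), 31.4 for Epha5 (13.7), 9.97 for Epha6 (7.41), 2.96 for Epha7 (2.02), 17.7 for Ephb1 (11.8), 43.8 for Ephb2 (37.9) and 10.4 for Ephb3 (7.40). With 38 counts in cRGC replicate 1, the level of Ephb4 there was the least precise of the receptors.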

Other observations

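Genes whose pattern over the 6 libraries was most like that of a receptor were looked up among 15940 tested genes for the receptors with the largest difference in each direction. For Ephb4 these were Arhgap29 (15.1, 28.5 and 8.92 CPM in iRGCs and 0.538, 2.76 and 2.39 CPM in cRGCs), Dio3 and Dock1, with root mean square differences of 0.125, 0.150 and 0.156 on the log2 scale. For Epha6 they were Sdk1 (44.8, 65.2 and 75.6 CPM in iRGCs and 138, 127 and 204 CPM in cRGCs), Igfbpl1 and Misp, at 0.0849, 0.0865 and 0.0970. These are likenesses over 6 libraries of 2 populations.

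Markers of other cells were counted beside the 23.3% of all tested genes that were higher in iRGCs, without a test of any list. Of the photoreceptor precursor markers 4 of 5 tested were higher in iRGCs and Rxrg was lower (-1.08, adjusted p = 0.00449), with list sums of 800, 637 and 620 CPM in iRGCs and 168, 252 and 204 CPM in cRGCs. Amacrine markers were higher for 5 of 6 and horizontal cell markers for 2 of 6. Mural cell markers were higher for 3 of 4 tested and erythroid markers for 4 of 4. Microglia markers were higher for 2 of 5 and fibroblast markers for 1 of 3. Some of these genes passed the filter on low counts only through the iRGC libraries. Alas2, for example, had 31, 85 and 25 counts in iRGCs and 0 in every cRGC library. Being tested then already required a higher level in iRGCs. The mural, erythroid and microglia tallies therefore cannot be read against the 23.3%. Lens, pigment epithelium and astrocyte markers gave 0 calls in edgeR.

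Among factors of retinal position, the dorsal genes Tbx2, Tbx3 and Aldh1a1 were higher in iRGCs, Tbx5 was lower and Bmp4 was not called. Aldh1a1 was at 147, 532 and 103 CPM in iRGCs and 10.0, 20.3 and 30.5 CPM in cRGCs. For Tbx5 the populations overlapped, at 9.10, 14.2 and 5.77 CPM in iRGCs and 10.1, 17.4 and 60.4 CPM in cRGCs. Aldh1a3, a ventral gene, was higher (2.79, adjusted p = 4.44e-04), although Vax2 was lower and Vax1 was not called. Hmx1, a nasal gene, was not called. Without iRGC replicate 1 Tbx5 was not called and Vax1 and Hmx1 were (adjusted p = 0.0904 and 0.0862).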
